A study of Ovis aries with 3 samples.

Results

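Many keratinocytes in the rumen lining of a milk-fed lamb library carried transcripts of GPNMB or AQP5, which were rare in the libraries of lambs that also ate solid feed. Of the milk-only keratinocytes passing the other limits given below, 43.0% had a transcript of either gene. The cells described here are those with the higher counts. The rule that defines these cells selected 196 of the 3850 kept cells of the milk-only library, or 5.09% (95% exact Clopper-Pearson interval 4.42 to 5.83%), out of 15772 kept cells in the whole series. Single-cell RNA libraries had been prepared in droplets from rumen epithelium of Hu sheep aged 42 days. The first diet was milk alone, and the others added alfalfa hay or concentrate starter to milk, with 1 library for each. All 3 tissues were taken apart with trypsin-EDTA, and the labels do not say how many lambs a library came from. With 1 library per diet no difference has a replicate check, diet cannot be told apart from animal or preparation, and every interval given covers counting error only.

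GPNMB encodes a transmembrane glycoprotein of melanosomes and lysosomes, known from pigment cells, macrophages and stressed cells. AQP5 encodes a water channel of secretory and some surface epithelia. GSTA1 encodes a glutathione transferase that conjugates electrophiles, and OTOR a small secreted protein known from the inner ear. The rumen wall is covered by a stratified squamous epithelium, in which KRT15-rich basal keratinocytes divide and their progeny move up through spinous and granular layers to a cornified surface. The same cells take up and partly oxidise short-chain fatty acids, above all butyrate, forming ketone bodies.

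The cells were chosen on measured unique molecular identifiers (UMIs, counts of captured RNA molecules). A kept cell had at least 500 detected genes and under 20% of its UMIs from 13 mitochondrially encoded genes, which left 3850 of 7032 barcodes. Requiring at least 5 UMIs of KRT15 left 2895 cells. A limit of 2 UMIs on the stress genes ATF3, RCAN1, RND1 and BHLHE40 together left 1599, and a limit of 1 UMI on the mitotic genes TOP2A and CENPF left 1277. Excluding any UMI of PTPRC or C1QA, genes of leukocytes and macrophages, left 1245 cells, here called like keratinocytes. Of these, 196 had at least 3 UMIs of GPNMB and AQP5 together and 710 had 0. The values of these genes in the selected cells are therefore a description of the choice.

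The 3-UMI threshold cut through a continuous distribution. Among the 1245 like keratinocytes, 224 had 1 UMI of the pair, 115 had 2, 59 had 3 and 46 had 4, and 25 had 10 or more. Cells just outside the threshold, with 2 UMIs, stood at 74.7 CPM of GPNMB and 52.5 CPM of AQP5 (CPM, UMIs of a gene in each 1000000 UMIs of the cells). Those just inside, with 3 to 4, stood at 127 and 83.5 CPM. The limits on stress and mitotic genes removed many cells that met it, since 380 kept milk-only cells had at least 3 UMIs in all. Of these, 138 were above the stress limit and 56 above the mitotic limit.

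**Figure D1:**
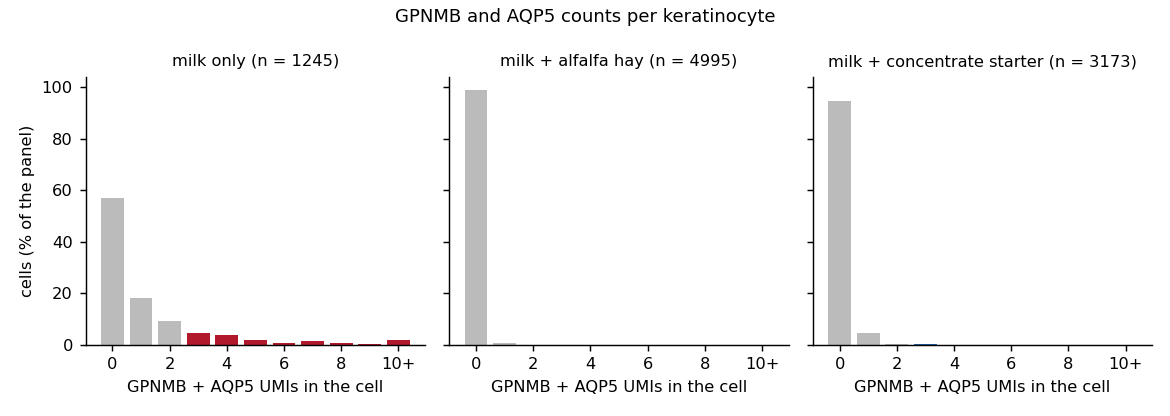
Percentage of like keratinocytes (y axis) by the number of GPNMB and AQP5 UMIs in the cell (x axis, 10 and above joined) in each library, with cells at or above 3 UMIs in colour. In the milk-only library 57.0% of cells had none and the counts tailed off without a gap, whereas 99.0% of hay and 94.8% of concentrate cells had none.

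The selected cells were also the more deeply sampled ones. Their median was 15737.5 UMIs and 2163 genes per cell, against 8836 UMIs and 1507 genes in the 710 like keratinocytes with none of the pair. The median mitochondrial share was 9.59% against 7.12%. When every cell was thinned to 5000 UMIs, leaving out 245 shallower cells, only 52 of 1000 like keratinocytes still had 3 or more UMIs. The share with any UMI of the pair went from 43.0% to 28.4% on thinning. RNA free in the droplets can place a UMI in any cell, and cells with PTPRC served as its measure (KRT15 under 5 UMIs, n = 364). They are called T or NK cells here, but PTPRC marks leukocytes in general and C1QA was not limited. Macrophages or dendritic cells may thus be among them. The 10 GPNMB UMIs of this set lay in 3 cells, and whether they were free RNA was not tested. Of the 364 cells, 1.10% (0.300 to 2.79%) had a UMI of the pair at a median depth of 5405 UMIs. Thinned to 5000 UMIs, that share was 1.49%.

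GPNMB was the commoner transcript of the pair. It ranged from 0 to 33 UMIs per selected cell, with a median of 3, while AQP5 ranged from 0 to 7 with a median of 1. Summed over the 196 cells GPNMB stood at 276 CPM (259 to 295) and AQP5 at 70.8 CPM (62.0 to 80.4). The cells were not uniformly double positive. Both genes were detected in 76 cells (38.8%), GPNMB alone in 95 (48.5%) and AQP5 alone in 25 (12.8%). Across all 1245 like keratinocytes AQP5 was found in 29.5% of cells with GPNMB and 20.1% of cells without it, but after thinning these shares were 11.5% and 11.4%. The Spearman correlation of the 2 levels across those cells was 0.08, and AQP5 and GPNMB correlated more with total UMIs per cell (0.29 and 0.18), which all the points share as a denominator.

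Basal genes that the rule did not use were compared between the selected cells and like keratinocytes with none of the pair. Both sets passed the same KRT15, stress, mitotic and immune limits, so similar levels do not test the keratinocyte label. TP63, the transcription factor of basal keratinocytes, stood at 56.1 CPM in the selected cells and 55.4 CPM in like keratinocytes with none of the pair. The hemidesmosome collagen COL17A1 stood at 91.2 and 95.2 CPM and the laminin receptor ITGA6 at 116 and 132 CPM, so the sets differed little in these genes. The 13 basal keratinocyte genes with a symbol in the files summed to 9298 and 9286 CPM, most of it KRT15, which the rule used (8799 and 8780 CPM). The usual basal keratins KRT5 and KRT14 were not listed by symbol and were not analysed here. Of the defining markers of other cell types, COL1A1, COL1A2 and COL3A1 of fibroblasts had no UMI in any of the 196 cells, nor had TYR, TYRP1, DCT, MLANA and SOX10 of melanocytes, or C1QB, C1QC, CD68 and CSF1R of macrophages. Over the whole lists, 3 of 14 T or NK markers, 4 of 16 macrophage or dendritic markers and 5 of 12 melanocyte markers were detected, in 13, 15 and 16 of the 196 cells. Their summed levels were 3.90, 6.6 and 5.10 CPM, against 5.54, 8.59 and 2.77 CPM in the reference cells, with from 0 to 7 UMIs of a list in any selected cell. Markers of glandular or simple epithelium summed to 95.4 CPM against 136 CPM, with 6 of 11 detected. They were found in 129 of the 196 selected cells. Of 9 neutrophil or mast cell markers S100A12 alone was detected, at 352 CPM in 132 selected cells against 1802 CPM for the list in the reference. Fibroblast markers were detected through 4 of 10 genes, mainly DCN, in 83 cells. What part these transcripts have in the results was not tested. Endothelial markers (1 of 9) and Schwann or neural markers (1 of 8) were at 2.10 and 0.300 CPM. Genes of the cell cycle summed to 27.0 CPM against 44.4 CPM, with the rule limiting 2 of them. The software used to find doublets marked none in any library and was not used, so doublets were not removed. Between 15 and 28 barcodes occurred in both of any 2 libraries, and 1 of the selected cells had a barcode that was also in the hay library.

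Of the other marker genes given for these cells, GSTA1 was only slightly higher and OTOR was not. GSTA1 reached 1262 CPM (1224 to 1300) in the selected cells and 950 CPM (928 to 973) in like keratinocytes with none of the pair, a ratio of 1.33 (1.28 to 1.38). It was detected in 68.9% of selected cells and 53.1% of reference cells, with 24.7% in the T or NK cells as the free-RNA level. The ratio of GSTA1 turned to a log2 value of -0.32 when members were chosen by at least 3 UMIs per 10000 UMIs of the cell, and reached 0.97 without cells rich in surface transcripts. OTOR stood at 29.7 CPM in the selected cells and 37.1 CPM in the reference, a ratio of 0.80 (0.63 to 1.01), and was detected in 27 of 196 cells. In T or NK cells OTOR was found in 0.549%.

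OTOR instead separated the milk-only library from the other 2. Over all like keratinocytes it stood at 37.7 CPM with milk only, in 138 of 1245 cells, and no UMI was found in 4995 hay or 3173 concentrate cells. Against the limit of 3 counts this is at least 380-fold and 345-fold higher. GPNMB stood at 75 CPM in the milk-only cells, 1.89 CPM in the hay cells and 3.21 CPM in the concentrate cells. AQP5 stood at 29.2, 0.232 and 4.16 CPM, and GSTA1 at 1129, 28.9 and 207 CPM. All 4 genes were therefore lowest with hay or undetected with both solid feeds. These 4 were chosen as markers with earlier results of these data known, so their differences between libraries partly describe that choice. The milk-only levels of GPNMB exceeded those with hay and concentrate 39.7-fold (30.4 to 52.7) and 23.3-fold (18.8 to 29.3), and those of AQP5 126-fold (60.6 to 315) and 7.02-fold (5.70 to 8.70). The median depth of these cells was 11023 UMIs with milk only, 5658 for hay and 7793 for concentrate. At 5000 UMIs each, the shares with a UMI of either gene were 28.4%, 0.761% and 3.68%. The full rule found 4 cells with hay and 8 with concentrate, too few to describe.

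**Figure D2:**
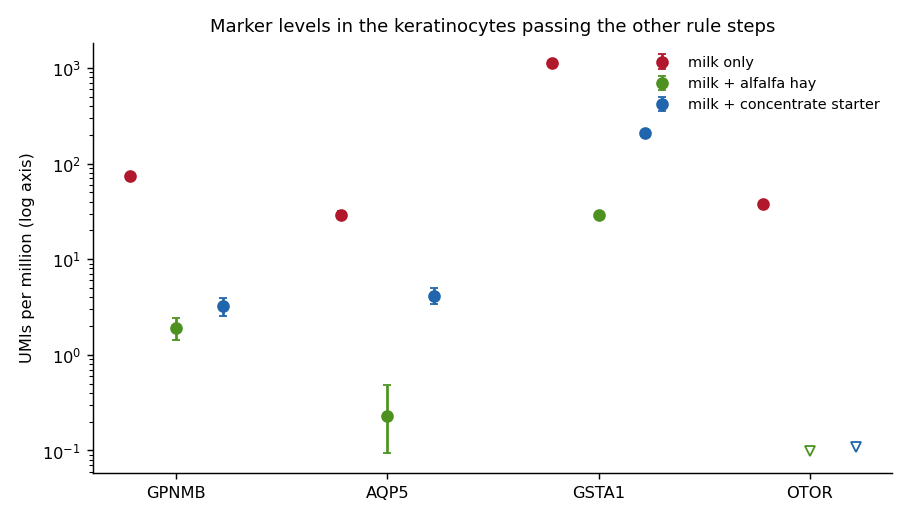
Level of the 4 genes (CPM, log axis) in like keratinocytes of each library; points are sums over cells, bars 95% Poisson intervals (often smaller than the point), and open triangles the limit of 3 counts where no UMI was found. The milk-only library is highest for each gene, and OTOR has no UMI in the other 2 libraries.

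The first question was which other genes went with GPNMB and AQP5 inside the milk-only library. Against all 2636 kept cells with none of the pair, 4816 genes were measured (at least 10 CPM in either set), of which 5.02% were at least 1.5-fold higher and 20.4% at least 1.5-fold lower, with a median log2 ratio of -0.14. That reference holds stressed, mitotic, immune and surface cells as well. The ratios below are therefore those against the 710 like keratinocytes with none of the pair, where 4463 genes were measured and the median log2 ratio was -0.05. There 119 genes (2.67%) were at least 1.5-fold higher and 290 (6.5%) at least 1.5-fold lower. Few genes thus went up with the pair, and more went down.

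A dehydrogenase of lipid droplets and a scaffold protein were among the higher genes. HSD17B13, the lipid-droplet enzyme, stood at 506 CPM in the selected cells and 263 CPM in the reference, a 1.92-fold difference (1.80 to 2.05), and was found in 84.7% and 56.2% of the cells. IQGAP2, which organises the cytoskeleton, stood at 190 and 107 CPM, 1.77-fold higher (1.59 to 1.97), and was found in 81.6% and 48.9% of cells. Both genes were past 1.5-fold under each alternative setting applied to this comparison, with log2 ratios of 0.60 to 1.07 and 0.62 to 0.93, but not when the cells were regrouped by their thinned counts (given with the levels by UMI number). HSD17B13 was no mark of the milk-only library, since like keratinocytes stood at 560 CPM with hay and 587 CPM with concentrate.

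The other higher genes given here were named after their values were seen and stand for no theme. Of 15 measured xenobiotic and aldehyde genes 1 was at least 1.5-fold higher (MAOA) and 2 lower (AKR1D1 and SULT2B1), with a median log2 ratio of 0.20. FABP4 and FABP5, cytosolic fatty acid carriers, stood at 2611 and 1643 CPM in the selected cells against 1486 and 988 CPM, ratios of 1.76 (1.71 to 1.81) and 1.66 (1.61 to 1.72). FABP4 was uneven, with quartiles of 81.0 and 2698 CPM across the selected cells, and the mean of per-cell values gave a log2 ratio of only 0.29. CA12, a membrane carbonic anhydrase that helps move bicarbonate, was 1.75-fold higher (407 against 232 CPM), and was found in 90.8% of selected and 61.7% of reference cells. The amine-degrading enzyme MAOA was 1.63-fold higher (105 against 64.4 CPM) and the carboxylesterase CES2 1.64-fold (183 against 112 CPM). DHRS7 and HSD17B2, dehydrogenases that act on steroids and retinoids, were 1.61-fold and 1.60-fold higher. IL1R2, the decoy receptor that binds interleukin-1 without signalling, was 1.62-fold higher (168 against 104 CPM). GJA1, the gap junction protein connexin 43, was 1.59-fold higher, but its log2 ratio was 0.05 among cells with at least 5 UMIs of the pair and 0.03 with a mitochondrial maximum of 10%. Each gene in this paragraph fell below 1.5-fold under at least 1 alternative.

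The metabolic lists moved little as wholes. BDH1, which interconverts the ketone bodies, was just under 1.5-fold at 1.46-fold (611 against 419 CPM). Of 9 lipid genes 3 were higher and 1 lower (median 0.27). For oxidative phosphorylation, 23 nuclear genes gave a median of 0.19 with 1 higher, the 15 glutathione and peroxide genes a median of 0.03 with none past 1.5-fold, and the 25 ribosomal entries a median of -0.04 with none. GPNMB is itself a lysosomal protein, but none of 11 measured lysosomal genes was past 1.5-fold (median 0.06). LIPA, the lysosomal acid lipase, stood at 42.6 against 28.7 CPM, and LAMP2, a lysosomal membrane protein, at 166 against 121 CPM. Of 2 measured autophagy genes, GABARAPL1 was 1.61-fold higher at 13.8 CPM. Of the 5 measured transport genes, CA12 was the only one past 1.5-fold, and the list's median was 0.48.

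Genes of the cornified surface were much lower in the sum, but most of the reference UMIs lay in a few cells. CNFN (cornifelin) stood at 3.0 CPM in the selected cells and 156 CPM in the reference, 52.0-fold lower (28.1 to 109), and PI3, an elastase inhibitor, at 3.0 and 140 CPM. A2ML1, a protease inhibitor of the granular layer, was 13.1-fold lower (33.6 against 441 CPM), and TGM1, a transglutaminase acting on cornified envelope proteins, 8.57-fold lower. With members taken from 2 UMIs of the pair, the log2 ratio of CNFN was -0.36 in place of -5.70. That of A2ML1 was -1.33 in place of -3.72 and that of TGM1 -1.45 in place of -3.10, while PI3 moved less than 1.5-fold. In the cornified and granular list 5 of 6 measured genes were lower, with a median log2 ratio of -3.41, and in the inflammatory list 4 of 6 were lower, among them S100A9 (304 against 1815 CPM) and S100A12 (352 against 1802 CPM). T or NK cells had 255 CPM of S100A9. Cells with 2 or more UMIs of CNFN, PI3, A2ML1 and TGM1 together were 16 of 196 selected (8.16%) and 67 of 710 reference cells (9.44%), at median depths of 15737.5 and 8836 UMIs. Thinned to 5000 UMIs, they were 7 of 192 (3.65%) and 43 of 510 (8.43%). The 10 richest of the reference cells held 75.3% of their UMIs of these 4 genes. Leaving all such cells out of both sets, a setting chosen after seeing the data, turned the log2 ratio of KRTDAP from -1.99 to 0.95, of KRT36 from -2.11 to 0.77 and of S100A9 from -2.58 to 0.11. These 3 genes took no part in that choice of cells. For the 4 genes that did, the values without such cells follow partly from the choice, and TGM1 went from -3.10 to 0.09.

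The lower level of CCDC80 and DCN was spread over many cells. CCDC80, a secreted matrix protein, stood at 87.6 CPM (77.8 to 98.2) in the selected cells and 324 CPM (311 to 338) in the reference, 3.70-fold lower. No reference cell held more than 1.62% of its UMIs there. In the matrix list 6 of 8 measured genes were lower and none higher, with a median log2 ratio of -0.93. Among them, DCN (decorin, a collagen-binding proteoglycan) was 2.71-fold lower (73.8 against 200 CPM) and TIMP1, an inhibitor of matrix proteases, 2.68-fold lower (33.9 against 90.6 CPM). TIMP2, of the same list, went from a log2 ratio of -1.61 to -0.61 without the cells rich in surface transcripts, while DCN was at -1.70 and TIMP1 at -1.64. DCN was detected in 35.7% of selected and 41.7% of reference cells, at 15737.5 and 8836 median UMIs, and in 1.10% of T or NK cells. With members chosen per 10000 UMIs its log2 ratio was -0.46 and that of CCDC80 -1.04. Of the 10 fibroblast markers with a symbol, DCN included, 4 were detected, in 83 selected cells, and they summed to 90.6 CPM against 232 CPM in the reference. FOS, an immediate early transcription factor, was 2.92-fold lower (33.3 against 97.3 CPM), and 5 of 9 measured immediate early genes were lower. FOS and TIMP1 kept log2 ratios below -1 in all alternatives, with -1.98 to -1.02 and -1.64 to -1.05. Of 11 measured S-phase genes 5 were lower. The rule's limits on stress and mitotic genes are raw counts, so they were stricter relative to total UMIs in the deeper selected cells. What part this has in the lower immediate early and S-phase genes was not tested. Of 9 interferon and antigen presentation genes 4 were lower. Of these, IRF7 (from -1.06 to 0.56) and MX1 (from -0.62 to 0.48) turned direction after thinning. The 7 basal and 7 integrin or hemidesmosome genes had none past 1.5-fold in either direction.

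**Figure D3:**
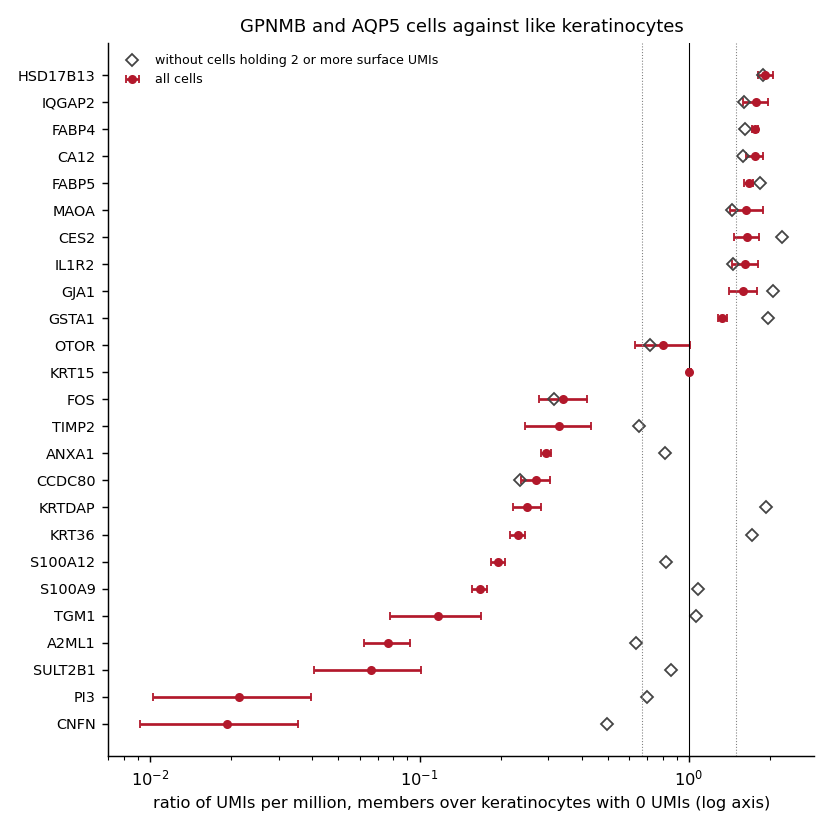
Ratio of CPM (x axis, log scale) of the 196 GPNMB and AQP5 cells over the 710 like keratinocytes with none of the pair, by gene; red points use all cells, bars are 95% counting intervals, open diamonds leave out cells with 2 or more UMIs of CNFN, PI3, A2ML1 and TGM1, and dotted lines mark 1.5-fold. HSD17B13 to GJA1 lie to the right with and without those cells, whereas KRTDAP, KRT36, S100A9 and TGM1 cross from left to right of 1.

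Most of the higher genes named here were already above the reference in cells with a single UMI of the pair, below the threshold. FABP4 was at 1486 CPM in cells with 0 UMIs and 2924 CPM with 1, and stood at 2342, 2418, 2538 and 3422 CPM with 2, 3 to 4, 5 to 9 and 10 or more. CA12 went from 232 to 358 CPM at 1 UMI and was 435 CPM at 10 or more. IQGAP2 was more gradual, at 107, 147, 149 and 176 CPM with 0, 1, 2 and 3 to 4 UMIs. It stood at 199 and 218 CPM above that, where the counting intervals overlapped. OTOR showed no such increase, with 37.1 CPM at 0 and 7.84 CPM at 10 or more. Of the lower genes, CCDC80 went from 324 to 142 CPM at 1 UMI. A2ML1 and KRTDAP were at 439 and 380 CPM with 2 UMIs, near their 441 and 378 CPM with 0. With 3 to 4 UMIs they were at 36.2 and 107 CPM. Median depth increased with the number of UMIs of the pair, from 8836 at 0 to 17948 at 10 or more, so the cells were also grouped by their UMIs of the pair after thinning. HSD17B13 was then at 285, 474, 403 and 354 CPM with 0, 1, 2 and 3 or more UMIs, and IQGAP2 at 130 CPM with 0 and 177 CPM with 3 or more, so neither was past 1.5-fold between 0 and 3 or more. FABP4 was at 1440, 2784, 1566 and 1612 CPM, so its level with 2 or more lay close to that with 0. IL1R2 increased at each step, at 112, 141, 166 and 242 CPM. GSTA1 was at 758, 1062, 462 and 519 CPM, lower with 2 or more than with 0. DCN was at 239, 151, 231 and 76.9 CPM. The group with 0 after thinning held 716 cells, but only 510 cells with 0 before it were deep enough to thin. That group therefore includes cells that had UMIs of the pair as deposited, and differs from the reference used above.

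**Figure D4:**
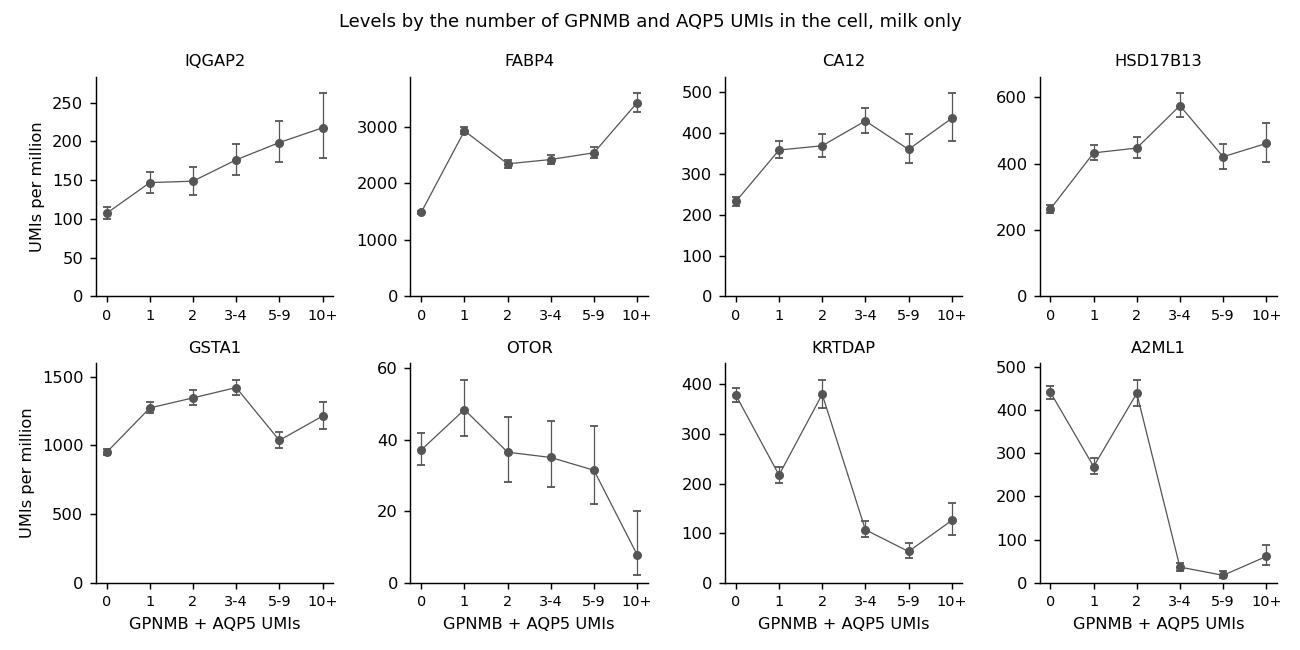
Levels of 8 genes (CPM, y axes from 0) in like keratinocytes of the milk-only library by the number of GPNMB and AQP5 UMIs in the cell (x axis); points are sums over 710, 224, 115, 105, 66 and 25 cells and bars 95% Poisson intervals. IQGAP2, FABP4, CA12 and HSD17B13 are higher from 1 UMI on, OTOR is not, and the surface genes KRTDAP and A2ML1 are high at 0 and at 2 UMIs.

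Genes that varied with the pair cell by cell did so weakly. Among 3504 genes, the highest Spearman correlation with the summed GPNMB and AQP5 level across the 1245 like keratinocytes was 0.28, for DHRS7, and the next were 0.25 for TST, a mitochondrial sulfur transferase, and 0.25 for ATP1B3, a subunit of the sodium pump. The 2 genes of the pair had different companions. AQP5 was closest to MGST3 (0.35), GJA1 (0.34), HSD17B13 (0.33) and GSTA1 (0.32). GPNMB was closest to PLA2R1 (0.20), IL1R2 (0.20) and LCAT (0.19), and its correlation with GSTA1 was -0.11. All of these values come from the cells of 1 library and share its depth.

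Some genes differed by large folds among the selected cells themselves, between the 25 with AQP5 alone and the 95 with GPNMB alone. At 50 CPM or more, 1591 genes were measured, of which 219 (13.8%) were at least 1.5-fold higher in the AQP5-only cells and 165 (10.4%) at least 1.5-fold lower. GSTA1 stood at 3177 CPM (3018 to 3342) in AQP5-only cells, 1691 CPM (1623 to 1761) in cells with both and 245 CPM (221 to 272) in GPNMB-only cells. The AQP5-only level was 13-fold (11.5 to 14.6) that of GPNMB-only cells and 3.34-fold that of like keratinocytes with neither gene, whereas the GPNMB-only level was 3.88-fold lower than that of those keratinocytes. Per-cell medians were 2121, 467 and 46.6 CPM, and the quartiles of the AQP5-only cells (566 to 4381 CPM) lay above those of the GPNMB-only cells (0 to 158 CPM). Against the keratinocytes with neither gene, 12% of 1615 measured genes were at least 1.5-fold higher and 11.8% lower in the AQP5-only cells, and 1.05% and 5.8% of 1518 in the GPNMB-only cells, with the reference cells shared. The AQP5-only set held 469642 UMIs and the GPNMB-only set 1472626, and counting error alone can take more genes past the limit in a smaller set. These shares therefore do not rank the subsets, nor can they be set against those measured from 10 CPM. UMIs of GSTA1 were found in 24 of 25 and 48 of 95 cells. The GSTA1 level of the whole set thus joined a high and a low subset. In T or NK cells GSTA1 was at 164 CPM (149 to 181), taken here as its free-RNA level.

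Several genes of the upper keratinocyte layers were higher with AQP5 alone than with GPNMB alone. SPINK5, an inhibitor of the proteases that shed the cornified surface, stood at 2148 CPM (2018 to 2285) in AQP5-only cells, 801 CPM in cells with both and 99.8 CPM (84.3 to 117) in GPNMB-only cells, a 21.5-fold ratio. The GPNMB-only value was no higher than the 120 CPM (107 to 134) of T or NK cells, so expression there could not be told from free RNA. KRTDAP, a protein of differentiating keratinocytes, was 8.28-fold higher (219 against 26.5 CPM), although 1 cell held 37.9% of its UMIs in the AQP5-only set and T or NK cells had 45.3 CPM. The desmosome is the junction that holds keratinocytes together, and 5 of its 6 measured genes were at least 1.5-fold higher and none lower, with a median log2 ratio of 1.33. Of these, DSC2 was 5.15-fold higher (245 against 47.5 CPM) and DSG3 2.57-fold (330 against 128 CPM). Over all settings the median log2 ratio of the desmosome genes ranged from 0.39 to 1.34. GJA1 was 6.48-fold higher (334 against 51.6 CPM), and was found in 21 of 25 against 26 of 95 cells. In like keratinocytes with neither gene KRTDAP stood at 378 CPM, above both single-gene subsets. SPINK5, DSC2 and GJA1 stood there at 602, 122 and 91.8 CPM, between the subsets.

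Some glutathione enzymes were higher in the AQP5-only cells too. Of 11 measured genes on that list 5, GSTA1 included, were at least 1.5-fold higher and 1 lower (GCLC), with a median log2 ratio of 0.29. Among the higher were GSTM3 at 4.86-fold (1045 against 215 CPM), the membrane transferase MGST1 at 2.87-fold (930 against 325 CPM) and MGST3 at 1.75-fold. FGFBP1, which releases bound fibroblast growth factor, was 4.91-fold higher, KCNK7, a member of the potassium channel family, 4.70-fold, and ATP6V1B1, a subunit of the proton pump, 3.85-fold. CA1, a carbonic anhydrase very abundant in these cells, was 2.10-fold higher (43595 against 20753 CPM). CA12, higher in the whole group, differed less between these subsets, with a ratio of 1.26 (1.07 to 1.48), and HSD17B13 was 2.22-fold higher in the AQP5-only cells.

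Some matrix genes were higher in GPNMB-only than in AQP5-only cells, with DCN and TIMP1 past 1.5-fold of 4 measured genes on that list. IGFBP6, which binds insulin-like growth factors, stood at 395 CPM (363 to 428) in GPNMB-only cells, 225 CPM in cells with both and 55.4 CPM (36.2 to 81.1) in AQP5-only cells, and was found in 77 of 95 and 10 of 25 of the single-gene cells. DCN stood at 116, 49.5 and 12.8 CPM in that order, and CCDC80 at 149, 43.1 and 27.7 CPM. SERPINH1, a collagen chaperone, stood at 179, 101 and 49.0 CPM. Like keratinocytes with neither gene had 200 CPM of DCN and 324 CPM of CCDC80, above each of the subsets. They had 178 CPM of SERPINH1, close to the GPNMB-only cells, and 332 CPM of IGFBP6, below them. KRT15, which the rule used, was 1.64-fold lower in AQP5-only cells (6169 against 10143 CPM) and the only 1 of 6 measured basal genes past 1.5-fold (median log2 ratio -0.22). The cells with both genes thus lay between the subsets for each of these genes. T or NK cells had 1.58 CPM of DCN and 3.94 CPM of IGFBP6, and fibroblast collagens were at 0 in all 196 cells.

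The contrast rests on few cells, and its size moved with their choice. Only 1 AQP5-only cell remained with at least 5 UMIs of the pair. With every like keratinocyte that had at least 1 UMI of AQP5 and none of GPNMB (n = 179) against the reverse (n = 251), a setting chosen after seeing the data, the log2 ratio of GSTA1 was 2.84 in place of 3.70, of SPINK5 3.27 in place of 4.43, of IGFBP6 -1.25 in place of -2.83 and of GJA1 1.68 in place of 2.70.

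The contrast was also computed in cells that took no part in choosing these genes. For this, the 20 highest and 11 lowest named genes of the AQP5-only cells (at least 100 CPM in the higher set, at least 2-fold, selected after their values were seen) were looked up in the concentrate library, in 104 like keratinocytes with AQP5 only and 61 with GPNMB only. Over all 1696 genes measured there, 12% were at least 1.5-fold higher in the AQP5 cells and 5.84% at least 1.5-fold lower. The share of all genes on each side of 1 was not counted, but their median log2 ratio was 0.07, on the higher side. Of the 20 higher genes, 20 were on the same side of 1 and 16 were past 1.5-fold. Of the 11 lower genes, 9 were on the same side and 5 past 1.5-fold, with HNRNPR and SDF2 on the other side. GSTA1 stood at 509 CPM (467 to 553) in the AQP5 cells and 57.9 CPM (39.4 to 82.2) in the GPNMB cells, an 8.78-fold ratio. SPINK5 was at 464 CPM in the AQP5 cells and had no UMI in the GPNMB cells, at least 82.8-fold higher against 3 counts, with UMIs in 18 of 104 cells. DSC2 was 3.61-fold, GJA1 2.54-fold and FGFBP1 2.75-fold higher.

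CCDC80 was 5.16-fold lower in the AQP5 cells of the concentrate library (44.9 against 232 CPM) and IGFBP6 2.69-fold (57.8 against 155 CPM). DCN was at 5.50 and 99.0 CPM, but 58.5% of its UMIs in the GPNMB cells came from 1 cell. COL1A1, COL1A2 or COL3A1 had UMIs in 2 of those 61 cells, and without them DCN was at 40.6 CPM and CCDC80 at 234 CPM. Of these concentrate cells 143 had only 1 UMI of the pair, and none had both genes. GPNMB was found in 1.92% and AQP5 in 3.28% of concentrate like keratinocytes at a median of 7793 UMIs. The T or NK cells of that library had 0 of 75 cells with either gene at a median of 2812 UMIs, which allows a share of up to 4%. These few and shallow cells therefore do not separate a single UMI from free RNA at this depth, and the concentrate groups are cells with a UMI rather than cells shown to express the gene. In milk-only keratinocytes outside the rule, with stress or mitotic genes above the limits (195 AQP5-only against 276 GPNMB-only cells, where 4.92% of 1708 measured genes were at least 1.5-fold higher and 1.81% lower), 20 of the 20 higher genes lay on the same side and 16 past 1.5-fold. There 9 of the 11 lower genes lay on the same side and 3 past 1.5-fold. The median log2 ratio of all genes measured in that comparison was 0.15, again on the higher side. GSTA1 was 3.38-fold higher in those AQP5-only cells (1643 against 486 CPM).

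**Figure D5:**
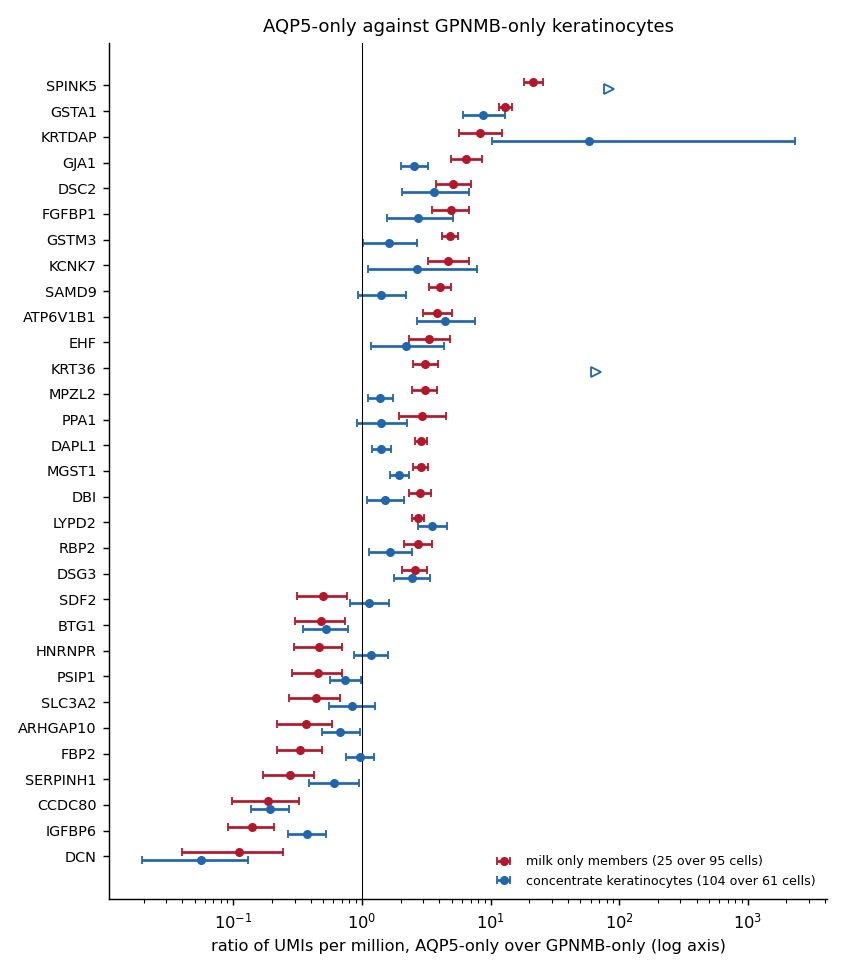
Ratio of CPM (x axis, log scale) in cells with AQP5 only over cells with GPNMB only, for the 20 highest and 11 lowest genes of the milk-only set; red points are the selected milk-only cells, blue points concentrate like keratinocytes with at least 1 UMI, bars 95% counting intervals, and open triangles lower limits where the GPNMB cells had no UMI. All 20 upper genes lie to the right in both libraries, while HNRNPR and SDF2 of the lower genes lie to the right of 1 in concentrate.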

How the data were processed

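Lamb rumen epithelium gave 3 droplet libraries, placed in diet groups by their labels. The deposited matrices hold raw counts per gene and barcode. Cell Ranger is 3.1 in the submitters' processing notes and 5.0.0 per the file headers. The genome build is not given in the sources used here. No sequences or coordinates are reported. Of 26247 genes, 14653 had a symbol carried by 1 identifier. Totals were 63057979 UMIs for milk only, 56861548 for hay and 60220174 for concentrate.

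UMIs were summed over the cells of a set and divided by the set's total, as CPM. Intervals are at the 95% level and cover counting error only: Poisson for a level, conditional binomial for a ratio of levels, Clopper-Pearson for a share, all exact. The limit for genes without a UMI was 3 counts. No test was made, since cells of 1 library are not replicates. Genes counted as measured with at least 10 CPM in either set (50 CPM for comparisons of subsets). Thinning drew 5000 UMIs per cell without replacement. Scrublet (scanpy 1.11.5) marked 0 cells, under the 0.5% needed for a working call. Computation used scipy 1.17.1, pandas 2.3.3 and numpy 2.4.6 under Python 3.11.15. The summing and interval steps were checked on simulated counts.

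The members, markers and lists were chosen with earlier results of these data known. The rule for named genes took the 20 highest and 15 lowest ratios to like keratinocytes among genes with at least 50 CPM in the higher set that differed 2-fold or more, with an interval clear of 1 and on the same side against all kept cells with none of the pair, leaving out ribosomal and mitochondrially encoded genes. It also took up to 4 genes per list with the largest ratios, the 10 genes of highest correlation, and detected markers of other cell types. Because few higher genes passed, genes past 1.5-fold were added after their values were seen. Alternatives covered the UMI threshold, cell filters, scaling, expression minimum, reference cells and depth. Results for some genes are not reported here.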

Additional observations from a re-analysis of the deposited data

How the results depend on the processing

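No paired analysis was possible because each diet had 1 library. Counts follow in the order higher, lower. The number of selected cells was 91 at 5 or more UMIs of the pair, 311 at 2 or more and 103 at a mitochondrial maximum of 10%. Against all kept cells with none of the pair, 242 and 982 genes were past 1.5-fold. The higher count was 372 at the 10% maximum, 487 after thinning, 479 with median-of-ratios scaling and 486 with totals without the 50 most abundant genes. It was 985 and 2681 from 1 CPM, 86 and 293 from 50 CPM, and 119 and 290 with like keratinocytes as the reference. For that reference, the higher count was 199 at 5 or more UMIs, 255 at 3 UMIs per 10000, 191 without the 50 genes, 194 in cells with at least 10000 UMIs and 77 without each gene's top cell. Both counts were 209 and 437 at the 10% maximum, 382 and 589 after thinning, 863 and 1567 from 1 CPM, 29 and 72 from 50 CPM, and 60 and 184 against cells with 0 to 2 UMIs. For AQP5-only over GPNMB-only cells (219 and 165) they were 703 and 279 at 3 UMIs per 10000, 426 and 287 after thinning, 1782 and 1468 from 1 CPM, 110 and 68 from 100 CPM, and 141 and 72 over all like keratinocytes. The higher count was 142 without the top cell.

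Among ratios past 1.5-fold, directions turned for SDF2 between the subsets (0.17 at 3 UMIs per 10000). After thinning they turned for IRF7 (0.56), MX1 (0.48) and the spinous median (0.28). Without cells rich in surface transcripts they turned for AKR1D1 (0.038), CDKN1A (0.37), GJB2 (0.71), KRT36 (0.77), KRTDAP (0.95), S100A8 (0.20), S100A9 (0.11), SERPINB13 (0.98), TGM1 (0.092) and the spinous median (0.90), all log2 ratios. Ratios under 1.5-fold also changed sign, among them GSTA1 (-0.32) at 3 UMIs per 10000. The cause was not tested, except that a higher CPM minimum tests fewer genes by construction. Of 101 named ratios past 1.5-fold, 91 were still past it after thinning, 97 under either scaling, 77 at 3 UMIs per 10000 and 71 without surface transcripts. The settings for depth, surface transcripts, all like keratinocytes, collagen and the top cell were chosen after seeing the data. AQP5-only cells could not be compared at 5 or more UMIs, where 1 remained.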
